A study of Mus musculus with 8 samples.

Results

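The genes described here are 33 genes of mitosis, chosen by name: the cyclins and the kinase that start mitosis, the mitotic kinases, the spindle checkpoint, the kinetochore, spindle motors, cytokinesis factors and proliferation markers. All 33 were found among the 24346 gene symbols measured, and all 33 passed the filter of a mean of at least 1 FPKM that left 11537 genes to test. FPKM count sequenced fragments per kilobase of a transcript and for a fixed number of mapped fragments, so levels of genes can be compared per length.

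The RNA came from colon epithelial cells of untreated C57BL/6J mice, and 1 male and 1 female library were sequenced for each of 4 genotypes. The mutants were, by their labels, St6galnac6-/-, a knockout of a sialyltransferase, B3galt5D116A, with a substitution in a galactosyltransferase, and B3gnt7-/-, a knockout of an N-acetylglucosaminyltransferase. Each was set against wild-type. All 3 genes encode enzymes that extend or cap sugar chains on proteins or lipids. The labels give neither age, nor which exons were removed, nor whether a library holds 1 animal or a pool, so the p-values below measure only the spread between these libraries. No batch or date is given either, and a batch therefore cannot be told apart from genotype.

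The colon lining renews itself from dividing cells in the lower part of the crypts, whose daughters move up, stop dividing and become absorptive colonocytes or goblet cells. Cyclin B bound to CDK1 starts mitosis, kinetochores tie the chromosomes to the spindle, and the checkpoint holds the anaphase-promoting complex back until all are attached. Destruction of cyclin B and securin by that complex then starts anaphase, after which the centralspindlin complex and its partners divide the cell. Many of these genes are transcribed together in G2 and M phase through promoters that hold the cell cycle genes homology region (CHR), bound by MuvB complexes with B-MYB and FOXM1, and CCAAT boxes, bound by NF-Y. In RNA from a whole cell population, fewer cells of a type and less RNA per cell cannot be told apart.

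Promoters are shown for 7 of the genes, to print 2 motifs known from promoters of G2 and M genes; whether either bears on the measured values was not tested. The first 6 were chosen for holding at least 1 match to each motif, and Birc5 because its window holds neither. The sequences are RefSeq's on GRCm38.p6 (mm10) and run 5′ to 3′ on the gene's strand over the 200 bases before the annotated start: Cdk1 at chr10:69352913-69353112 (minus), Cdc20 at chr4:118437344-118437543 (minus), Ube2c at chr2:164769729-164769928 (plus), Top2a at chr11:99024190-99024389 (minus), Kif11 at chr19:37376182-37376381 (plus), Mki67 at chr7:135716380-135716579 (minus) and Birc5 at chr11:117849037-117849236 (plus). Capitals mark 2 motifs. The first is the CHR in the form TTTGAA, which reads TTCAAA on the other strand, or in the form TTCGAA, which is its own reverse complement. The second is CCAAT, which reads ATTGG on the other strand.
Cdk1: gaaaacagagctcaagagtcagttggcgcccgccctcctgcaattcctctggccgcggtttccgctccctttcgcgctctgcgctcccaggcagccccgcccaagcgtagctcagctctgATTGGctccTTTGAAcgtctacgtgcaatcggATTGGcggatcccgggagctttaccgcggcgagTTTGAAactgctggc
Cdc20: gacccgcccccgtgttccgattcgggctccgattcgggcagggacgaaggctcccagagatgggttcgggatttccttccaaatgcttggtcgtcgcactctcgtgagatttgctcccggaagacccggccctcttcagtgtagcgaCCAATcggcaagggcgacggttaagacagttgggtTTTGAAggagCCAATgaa
Ube2c: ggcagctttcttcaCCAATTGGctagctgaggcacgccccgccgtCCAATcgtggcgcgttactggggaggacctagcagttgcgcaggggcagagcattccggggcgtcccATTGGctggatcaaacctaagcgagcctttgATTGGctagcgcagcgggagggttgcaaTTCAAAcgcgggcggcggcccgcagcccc
Top2a: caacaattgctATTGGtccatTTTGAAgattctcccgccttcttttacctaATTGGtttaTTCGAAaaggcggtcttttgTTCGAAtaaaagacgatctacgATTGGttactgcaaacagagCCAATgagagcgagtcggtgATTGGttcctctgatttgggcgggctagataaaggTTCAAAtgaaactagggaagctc
Kif11: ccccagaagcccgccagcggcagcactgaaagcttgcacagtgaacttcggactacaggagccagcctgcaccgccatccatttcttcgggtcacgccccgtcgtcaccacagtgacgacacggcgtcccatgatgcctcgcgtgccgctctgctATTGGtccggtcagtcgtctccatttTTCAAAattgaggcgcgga
Mki67: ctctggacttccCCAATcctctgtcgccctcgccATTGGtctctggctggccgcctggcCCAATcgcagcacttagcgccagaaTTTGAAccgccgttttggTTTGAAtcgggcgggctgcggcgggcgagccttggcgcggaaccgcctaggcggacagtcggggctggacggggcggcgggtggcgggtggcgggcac
Birc5: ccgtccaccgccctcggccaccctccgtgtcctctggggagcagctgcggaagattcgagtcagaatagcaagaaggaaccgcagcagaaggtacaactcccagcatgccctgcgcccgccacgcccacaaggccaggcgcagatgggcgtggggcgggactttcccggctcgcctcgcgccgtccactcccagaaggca

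RefSeq promoters, from 250 bases before to 50 bases after the start, were matched for 28 of the 33 genes. Aurkb, Ccna2, Foxm1, Kif20a and Tpx2 were not matched. The CHR in either form and on either strand stood in 23 of the 28 (82.1%), against 19.4% of all 27025 promoters of that length. The match lay within 50 bases of the start in 21 (75.0%), against 5.29% of all promoters. CCAAT on either strand stood in 22 (78.6%), against 37.9% of all promoters, and both motifs together in 20 (71.4%), against 7.70%. Neither was found in Nuf2, Nusap1 and Birc5, while 50.3% of all promoters held neither. The CHR match began 15 bases before the start in Cdk1, 18 in Cdc20, 19 in Kif11, 23 in Top2a and 29 in Ube2c. These are matches of letters, with 2 overlaps between matches, and not measured binding.

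The 8 libraries summed to between 518482 and 639537 FPKM, with 11392 to 11663 genes at or above 1 FPKM. The tables hold no counts, so absolute depth is unknown; a relative depth, read from the spacing of values under 0.15 FPKM, ran from 1 in the wild-type male library to 1.45 in the male B3galt5D116A library. St6galnac6 itself was at 218 (male) and 232 (female) FPKM in St6galnac6-/- and at 368 and 343 FPKM in wild-type, and pairs of values below keep that order of sex. B3gnt7 stood at 68.8 (male) and 142 (female) FPKM in B3gnt7-/-, against 215 and 190 FPKM in wild-type. B3galt5 stood at 133 (male) and 93.1 (female) FPKM in B3galt5D116A, against 117 and 105 FPKM in wild-type; a substitution need not change the level. Transcript of the targeted gene remained in both knockouts, and B3gnt7 in the B3gnt7-/- female was near its level of 154 FPKM in the B3galt5D116A female. Since the removed part is not given, these levels do not settle whether the labels hold. Epithelial markers (Epcam, Cdh1, Krt8, Krt18, Krt19, Vil1, Cdx2 and Lgals4) were high in every library, with summed values of 11522 to 15484 FPKM.

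The mitosis genes followed 1 shared pattern across the 8 libraries: they were high in the female St6galnac6-/-, both B3galt5D116A and the male B3gnt7-/- libraries, and low in the female B3gnt7-/- and both wild-type libraries. Their mean log2(FPKM + 1) was 3.62 (male) and 4.42 (female) in St6galnac6-/-, 4.07 and 4.14 in B3galt5D116A, 4.10 and 3.36 in B3gnt7-/-, and 3.28 and 3.39 in wild-type. The summed level of the 33 genes was 446 and 838 FPKM in St6galnac6-/-, then 637 and 685 in B3galt5D116A, then 646 and 375 in B3gnt7-/-, and 352 and 379.9 in wild-type. The sum took 0.152% of all FPKM in the female St6galnac6-/- library and 0.0575% in the male wild-type library, the ends of the range. By genotype the mean was 4.02 ± 0.57 in St6galnac6-/-, 4.11 ± 0.046 in B3galt5D116A, 3.73 ± 0.52 in B3gnt7-/- and 3.33 ± 0.078 in wild-type (SD, n = 2 each). The libraries of B3galt5D116A lay close together, while those of St6galnac6-/- and of B3gnt7-/- lay far apart and in opposite order of sex.

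**Figure D1:**
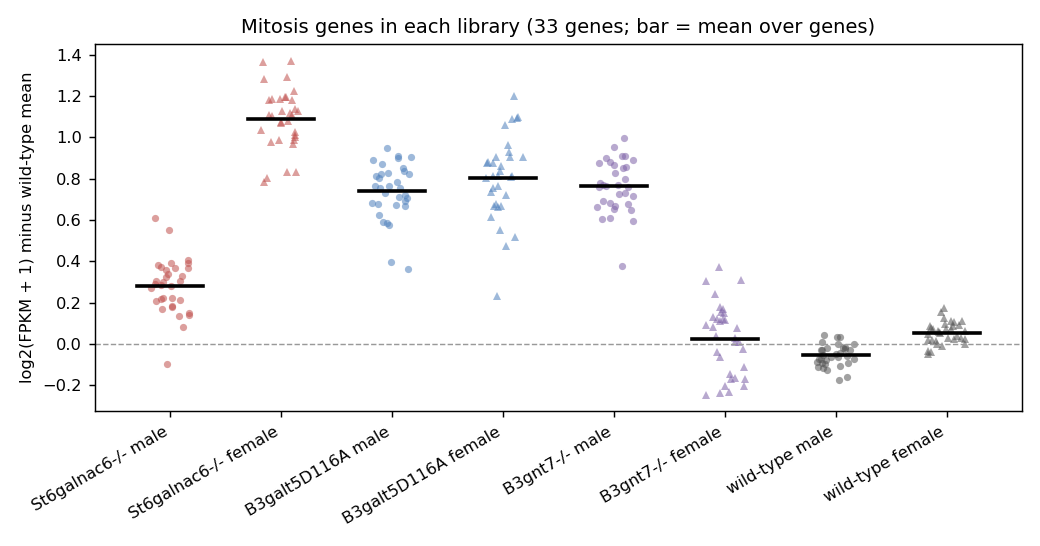
Values of the 33 mitosis genes in each of the 8 libraries (x axis), as log2(FPKM + 1) minus the gene's mean over both wild-type libraries (y axis). Each point is 1 gene, circles are male and triangles female libraries, and the bar is the mean over genes; the female St6galnac6-/- library is highest (mean 4.42 before the wild-type mean of 3.33 is taken off) and the female B3gnt7-/- library (3.36) lies among the wild-type values.

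The female St6galnac6-/- library held the highest value of 32 of the 33 genes, against 12.3% of all tested genes. The exception was Ndc80, which was highest in the male B3galt5D116A library. The lowest value lay in the male wild-type library for 19 genes, in the female B3gnt7-/- library for 12 and in the female wild-type library for 2. Of all tested genes, 13.2%, 22.9% and 13.1% were lowest in these libraries, in the same order. A gene's highest library exceeded its lowest by 1.79-fold (Plk1) to 2.98-fold (Ttk), with a median of 2.50-fold. The 4 libraries with the highest means over the genes were also the 4 with the highest relative depth, which was 1.36 in the female St6galnac6-/- library, 1.45 and 1.26 in the male and female B3galt5D116A libraries and 1.40 in the male B3gnt7-/- library. It was 1.22 in the male St6galnac6-/- library, 1.18 in the female B3gnt7-/- library and 1 (male, by definition) and 1.05 (female) in wild-type. FPKM are already scaled to depth, and the part of depth in the pattern was not tested.

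Cyclins and CDK1 had the largest median log2 difference from wild-type of the 7 roles in each mutant, 0.79 in St6galnac6-/-, 0.93 in B3galt5D116A and 0.52 in B3gnt7-/-, though no gene among them passed the test. Ccna2, cyclin A2, which acts from S phase to early mitosis, was at 24.0 (male) and 48.7 (female) FPKM in St6galnac6-/-, at 35.2 and 40.4 in B3galt5D116A, at 37.6 and 20.2 in B3gnt7-/-, and at 17.5 and 19.2 in wild-type. All 6 mutant libraries lay above both wild-type libraries, the female B3gnt7-/- library only just. Ccnb2, cyclin B2, was at 24.7 (male) and 44.3 (female) FPKM in St6galnac6-/-, at 36.0 and 36.1 in B3galt5D116A, at 36.5 and 19.5 in B3gnt7-/-, and at 19.7 and 19.8 in wild-type. Here the female B3gnt7-/- library lay just below both wild-type libraries, and the other 5 mutant libraries lay above them. In limma's fit over all 11537 tested genes, the log2 difference of Ccna2 against wild-type was 0.87 (SE 0.37, adjusted p = 0.552) in St6galnac6-/-, 1.0 (SE 0.37, adjusted p = 0.395) in B3galt5D116A and 0.56 (SE 0.37, adjusted p = 0.807) in B3gnt7-/-. For Ccnb2 limma gave 0.72 (SE 0.34, adjusted p = 0.585) in St6galnac6-/-, 0.84 (SE 0.34, adjusted p = 0.413) in B3galt5D116A and 0.42 (SE 0.34, adjusted p = 0.842) in B3gnt7-/-. Over the 4 genes of this group, with Cdk1 and Ccnb1, the differences ran from 0.72 to 0.87 in St6galnac6-/-, 0.84 to 1.0 in B3galt5D116A and 0.42 to 0.56 in B3gnt7-/-. Ccnb1 and Ccnb2 have annotated pseudogene copies, and how reads that match several places were shared is not given in the sources used here, so their values are uncertain to that extent. The ratio of Ccnb1 to Cdk1 FPKM, the partners of 1 complex, stayed between 1.03 and 1.22 over the 8 libraries.

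Among the mitotic kinases and the chromosomal passenger complex, Birc5 followed the shared pattern and Plk1 departed from it. Birc5, survivin, the passenger complex subunit that brings Aurora B to centromeres, was at 32.7 (male) and 65.0 (female) FPKM in St6galnac6-/-, at 44.7 and 55.2 in B3galt5D116A, at 41.4 and 23.0 in B3gnt7-/-, and at 25.5 and 26.4 in wild-type. The female B3gnt7-/- library held the lowest value and the other 5 mutant libraries lay above both wild-type libraries. Plk1, the kinase that drives centrosome maturation and mitotic entry, was at 25.2 (male) and 41.6 (female) FPKM in St6galnac6-/-, at 30.8 and 28.0 in B3galt5D116A, at 31.1 and 31.0 in B3gnt7-/-, and at 23.2 and 24.2 in wild-type. Every mutant library lay above both wild-type libraries, and those of B3gnt7-/- were almost equal. Limma put the difference of Birc5 at 0.81 (SE 0.36, adjusted p = 0.566) in St6galnac6-/-, 0.91 (SE 0.36, adjusted p = 0.410) in B3galt5D116A and 0.24 (SE 0.36, adjusted p = 0.920) in B3gnt7-/-. That of Plk1 was 0.43 (SE 0.20, adjusted p = 0.580) in St6galnac6-/-, 0.30 (SE 0.20, adjusted p = 0.553) in B3galt5D116A and 0.37 (SE 0.20, adjusted p = 0.763) in B3gnt7-/- in the same limma fit, the smallest of the 33 genes in St6galnac6-/- and in B3galt5D116A. The other 4 genes, in log2 differences for St6galnac6-/-, B3galt5D116A and B3gnt7-/- in that order, stood at 0.67, 0.82 and 0.33 for Aurka, the kinase of the spindle poles, and 0.45, 0.46 and 0.24 for Aurkb, the passenger complex kinase. Cdca8, borealin, stood at 0.60, 0.70 and 0.21, and Tpx2, the activator of Aurora A, at 0.73, 0.90 and 0.49. The ratio of Aurkb to Birc5 ranged from 0.317 to 0.489 over the libraries, and that of Tpx2 to Aurka from 0.588 to 0.739.

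The spindle checkpoint and anaphase-promoting complex group held the gene with the highest level. Ube2c, the ubiquitin-conjugating enzyme of that complex, averaged 47.9 FPKM over the 8 libraries and was at 33.4 (male) and 78.1 (female) FPKM in St6galnac6-/-, at 56.4 and 69.3 in B3galt5D116A, at 56.1 and 30.4 in B3gnt7-/-, and at 28.3 and 30.9 in wild-type. The female B3gnt7-/- value lay between both wild-type values, and all other mutant values lay above them. Cdc20, the activator that the checkpoint holds back, was at 26.5 (male) and 45.0 (female) FPKM in St6galnac6-/-, at 34.7 and 39.1 in B3galt5D116A, at 37.1 and 18.02 in B3gnt7-/-, and at 20.9 and 20.9 in wild-type. Its lowest value was in the female B3gnt7-/- library. Limma gave Ube2c differences of 0.77 (SE 0.40, adjusted p = 0.626) in St6galnac6-/-, 1.05 (SE 0.40, adjusted p = 0.402) in B3galt5D116A and 0.47 (SE 0.40, adjusted p = 0.854) in B3gnt7-/-, of which that in B3galt5D116A was the largest of any of the 33 genes in any mutant. For Cdc20 limma gave 0.70 (SE 0.35, adjusted p = 0.612) in St6galnac6-/-, 0.79 (SE 0.35, adjusted p = 0.436) in B3galt5D116A and 0.30 (SE 0.35, adjusted p = 0.900) in B3gnt7-/-. The checkpoint kinases Bub1 and Ttk and the BubR1 gene Bub1b had log2 differences of 0.60, 0.68 and 0.62 in St6galnac6-/-, 0.73, 0.73 and 0.82 in B3galt5D116A and 0.40, 0.38 and 0.43 in B3gnt7-/-, each set in the order Bub1, Ttk, Bub1b. Bub1 had the lowest mean level of the 33 genes, 4.68 FPKM, and the lowest single value of any was 2.47 FPKM, for Ttk in the female B3gnt7-/- library.

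Of the kinetochore genes, Cenpe, the kinesin that helps chromosomes congress, was at 6.00 (male) and 10.5 (female) FPKM in St6galnac6-/-, at 8.19 and 7.63 in B3galt5D116A, at 8.35 and 4.78 in B3gnt7-/-, and at 4.30 and 4.61 in wild-type. Nuf2, a subunit of the NDC80 complex that holds microtubules, was at 6.48 (male) and 8.72 (female) FPKM in St6galnac6-/-, at 7.84 and 8.04 in B3galt5D116A, at 7.71 and 4.34 in B3gnt7-/-, and at 4.03 and 3.78 in wild-type. All 6 mutant libraries lay above both wild-type libraries for both genes. Nuf2 had the smallest p of the 33 genes in St6galnac6-/-, and its limma differences were 0.80 (SE 0.24, adjusted p = 0.404) in St6galnac6-/-, 0.87 (SE 0.24, adjusted p = 0.353) in B3galt5D116A and 0.48 (SE 0.24, adjusted p = 0.745) in B3gnt7-/-. Those of Cenpe were 0.72 (SE 0.29, adjusted p = 0.535) in St6galnac6-/-, 0.71 (SE 0.29, adjusted p = 0.415) in B3galt5D116A and 0.43 (SE 0.29, adjusted p = 0.814) in B3gnt7-/- in limma. Ndc80, the partner of Nuf2, had log2 differences of 0.57, 0.84 and 0.38, and Cenpf, a large protein of the outer kinetochore, of 0.74, 0.62 and 0.51, in the order St6galnac6-/-, B3galt5D116A and B3gnt7-/-. The ratio of Nuf2 to Ndc80 ran from 0.897 to 1.21, highest in the male St6galnac6-/- library.

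Spindle motors and spindle proteins included the largest differences in St6galnac6-/- and in B3gnt7-/-. Nusap1, which bundles microtubules near chromosomes, was at 10.6 (male) and 18.2 (female) FPKM in St6galnac6-/-, at 14.2 and 15.8 in B3galt5D116A, at 13.5 and 8.33 in B3gnt7-/-, and at 6.75 and 7.04 in wild-type. Kif11, the kinesin that pushes the spindle poles apart, was at 9.58 (male) and 16.6 (female) FPKM in St6galnac6-/-, at 12.9 and 14.3 in B3galt5D116A, at 14.1 and 9.10 in B3gnt7-/-, and at 6.55 and 7.84 in wild-type. For both, the 6 mutant libraries all lay above both wild-type libraries. Limma's differences for Nusap1 were 0.92 (SE 0.28, adjusted p = 0.408) in St6galnac6-/-, 1.02 (SE 0.28, adjusted p = 0.351) in B3galt5D116A and 0.56 (SE 0.28, adjusted p = 0.742) in B3gnt7-/-, the largest of the 33 genes in St6galnac6-/- and the smallest p in B3galt5D116A. Kif11 had 0.74 (SE 0.27, adjusted p = 0.505) in St6galnac6-/-, 0.84 (SE 0.27, adjusted p = 0.382) in B3galt5D116A and 0.59 (SE 0.27, adjusted p = 0.726) in B3gnt7-/- in limma, the largest difference and smallest p of the 33 in B3gnt7-/-. Kif4, the chromosome-arm kinesin, had log2 differences of 0.64, 0.79 and 0.36, and has an annotated pseudogene copy. Kif2c, the microtubule depolymerase MCAK, had log2 differences of 0.70, 0.76 and 0.25, and Hmmr, a spindle-associated hyaluronan receptor, of 0.64, 0.77 and 0.43, again in the order St6galnac6-/-, B3galt5D116A, B3gnt7-/-.

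The cytokinesis genes had median log2 differences from wild-type of 0.65 in St6galnac6-/-, 0.70 in B3galt5D116A and 0.31 in B3gnt7-/-, below those of the cyclins in each. Racgap1, a subunit of centralspindlin, was at 16.0 (male) and 30.7 (female) FPKM in St6galnac6-/-, at 21.4 and 24.6 in B3galt5D116A, at 22.6 and 12.3 in B3gnt7-/-, and at 12.8 and 13.1 in wild-type. Prc1, which bundles the midzone microtubules, was at 12.8 (male) and 26.7 (female) FPKM in St6galnac6-/-, at 20.6 and 20.4 in B3galt5D116A, at 19.8 and 10.02 in B3gnt7-/-, and at 10.4 and 11.9 in wild-type. Ect2, which acts at the cleavage site, was at 10.2 (male) and 17.0 (female) FPKM in St6galnac6-/-, at 14.1 and 15.1 in B3galt5D116A, at 14.3 and 7.56 in B3gnt7-/-, and at 8.65 and 9.65 in wild-type. In all 3 genes the female B3gnt7-/- library held the lowest value and the other 5 mutant libraries lay above both wild-type libraries. Limma's differences were 0.74 (SE 0.34, adjusted p = 0.585) in St6galnac6-/-, 0.78 (SE 0.34, adjusted p = 0.432) in B3galt5D116A and 0.35 (SE 0.34, adjusted p = 0.874) in B3gnt7-/- for Racgap1. For Prc1 limma gave 0.68 (SE 0.38, adjusted p = 0.643) in St6galnac6-/-, 0.82 (SE 0.38, adjusted p = 0.451) in B3galt5D116A and 0.31 (SE 0.38, adjusted p = 0.904) in B3gnt7-/-. Ect2 had 0.49 (SE 0.31, adjusted p = 0.692) in St6galnac6-/-, 0.62 (SE 0.31, adjusted p = 0.468) in B3galt5D116A and 0.17 (SE 0.31, adjusted p = 0.928) in B3gnt7-/- in limma, the smallest of the 33 in B3gnt7-/-. Kif20a and Kif23, the kinesins of the midzone, and Anln, the actin-binding anillin, had log2 differences of 0.70, 0.48 and 0.62 in St6galnac6-/-, 0.76, 0.65 and 0.60 in B3galt5D116A, and 0.19, 0.38 and 0.31 in B3gnt7-/-, each set in the order Kif20a, Kif23, Anln. The ratio of Racgap1 to Kif23, the partners of centralspindlin, was lowest at 1.03 in the female B3gnt7-/- library and highest at 1.48 in the female St6galnac6-/- library.

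Mki67, the Ki-67 protein that coats mitotic chromosomes and marks cycling cells, was at 28.1 (male) and 50.9 (female) FPKM in St6galnac6-/-, at 41.1 and 37.3 in B3galt5D116A, at 38.6 and 26.0 in B3gnt7-/-, and at 21.2 and 24.9 in wild-type. Top2a, the topoisomerase that untangles sister chromatids, was at 25.1 (male) and 48.9 (female) FPKM in St6galnac6-/-, at 35.8 and 39.0 in B3galt5D116A, at 39.2 and 23.2 in B3gnt7-/-, and at 19.6 and 21.2 in wild-type. All 6 mutant libraries lay above both wild-type libraries for both, by little in the female B3gnt7-/- library. For Mki67 limma gave 0.70 (SE 0.29, adjusted p = 0.542) in St6galnac6-/-, 0.75 (SE 0.29, adjusted p = 0.409) in B3galt5D116A and 0.45 (SE 0.29, adjusted p = 0.807) in B3gnt7-/-. For Top2a the limma differences were 0.76 (SE 0.33, adjusted p = 0.564) in St6galnac6-/-, 0.84 (SE 0.33, adjusted p = 0.410) in B3galt5D116A and 0.54 (SE 0.33, adjusted p = 0.796) in B3gnt7-/-. Foxm1, the transcription factor of the G2 and M genes, was lower in level, with a mean of 6.56 FPKM, and had log2 differences of 0.73 in St6galnac6-/-, 0.53 in B3galt5D116A and 0.41 in B3gnt7-/-.

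**Figure D2:**
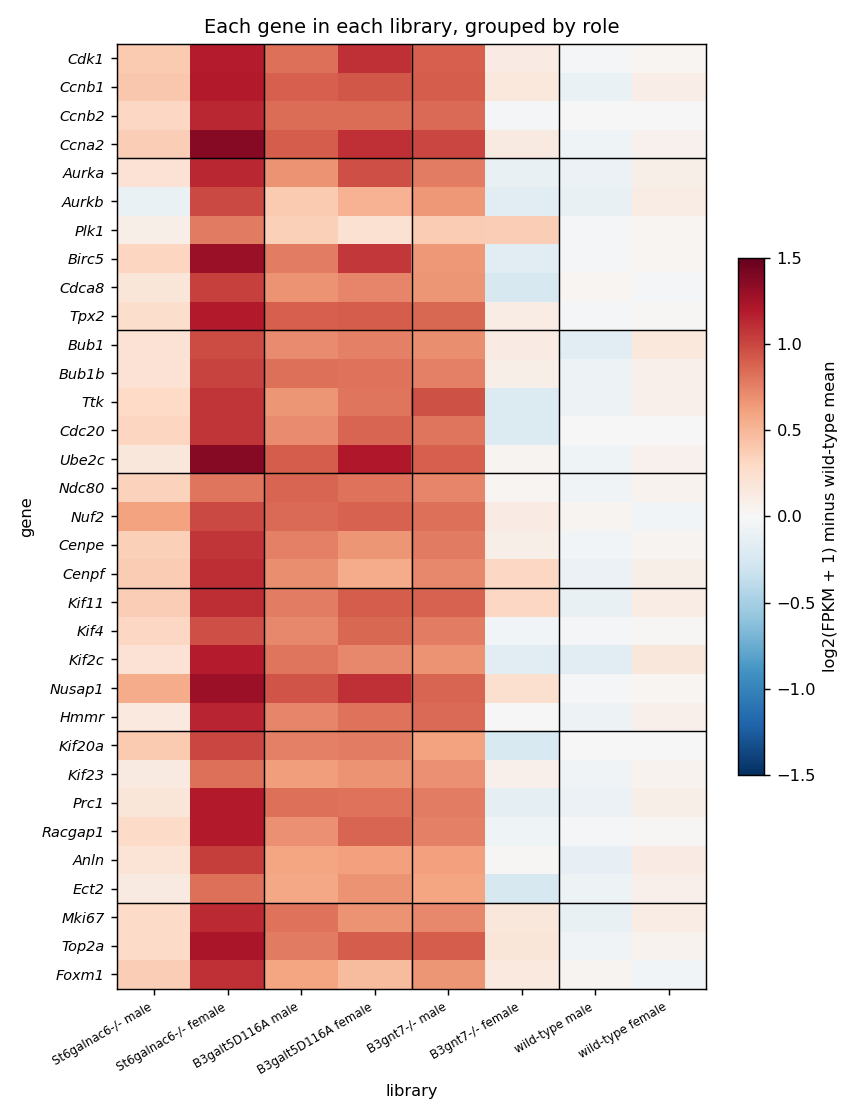
Each of the 33 genes (down) in each of the 8 libraries (across), grouped by role between the horizontal lines; colour is log2(FPKM + 1) minus the gene's mean over both wild-type libraries. The female St6galnac6-/- column is darkest for 32 genes, and the Plk1 line is paler than its neighbours there and redder in the female B3gnt7-/- column.

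Counted over the genes, the fitted log2 difference between St6galnac6-/- and wild-type was positive for all 33 (50.6% of tested genes) and ran from 0.43 to 0.92, with a median of 0.70, where the median of all tested genes was 0.0030. By limma with Benjamini-Hochberg adjustment over the 11537 genes, 0 of the 33 passed an adjusted p of 0.05, against 0.0867% of tested genes; the lowest adjusted p was 0.404, for Nuf2. At an unadjusted p under 0.05, 10 of the 33 were higher, against 4.07% of tested genes. Both St6galnac6-/- libraries lay above both wild-type libraries for 32 of the 33, all but Aurkb, against 24.1% of tested genes. The difference in the mean over genes was 1.03 between the female libraries and 0.34 between the male libraries. The count of 10 became 3 with no filter on low values, 15 without the sex term and 32 when only St6galnac6-/- and wild-type were fitted. It also changed when single libraries were left out. The share of all tested genes at that level was not taken in these other fits, so their counts show only a dependence on the fit. Without the St6galnac6-/- female the median difference in the fit with its sex term was 0.18, and without the St6galnac6-/- male it was 1.20.

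Between B3galt5D116A and wild-type the differences were again positive for all 33 genes (50.2% of tested genes), from 0.30 to 1.05 with a median of 0.79, against a median of 0.0012 for all tested genes. Limma called 0 of the 33 at an adjusted p of 0.05, against 0.0780% of tested genes, with the lowest adjusted p at 0.351 for Nusap1. At an unadjusted p under 0.05, 20 were higher, against 5.84% of tested genes. Both B3galt5D116A libraries lay above both wild-type libraries for all 33, against 26.0% of tested genes. The difference in the mean over genes was 0.79 between the male and 0.75 between the female libraries. The main fit used 1 residual spread per gene over all 4 genotypes, so the SEs here also hold the spread within St6galnac6-/- and B3gnt7-/-. The SD of the mean over genes was 0.57 and 0.52 in those, against 0.046 in B3galt5D116A and 0.078 in wild-type. With only B3galt5D116A and wild-type fitted, limma's lowest adjusted p of the 33 was 0.0734. The count of 20 became 6 with no filter on low values and 32 when only B3galt5D116A and wild-type were fitted. It also changed when single libraries were left out. The share of all tested genes at that level was not taken in these other fits, so their counts show only a dependence on the fit. With a library left out the median difference in the fit with its sex term ran from 0.74 to 0.85.

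For B3gnt7-/- the differences from wild-type were positive for all 33 genes in the fit (47.9% of tested genes), from 0.17 to 0.59 with a median of 0.40, against -0.0095 for all tested genes. Limma called 0 of the 33, against 0.0520% of tested genes, and 0 reached an unadjusted p under 0.05, where 2.88% of tested genes were higher at that level. The lowest adjusted p was 0.726, for Kif11. Both B3gnt7-/- libraries lay above both wild-type libraries for 15 of the 33, against 16.0% of tested genes. The difference in the mean over genes was 0.82 between the male libraries and -0.029 between the female libraries. In the fit with its sex term, the median was 0.90 without the B3gnt7-/- female. Without the B3gnt7-/- male it was -0.085, with 7 genes positive. When only B3gnt7-/- and wild-type were fitted, 5 genes reached an unadjusted p under 0.05. The share of all tested genes at that level was not taken in that fit. The 3 comparisons share the wild-type libraries, so their common direction is not 3 separate observations.

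**Figure D3:**
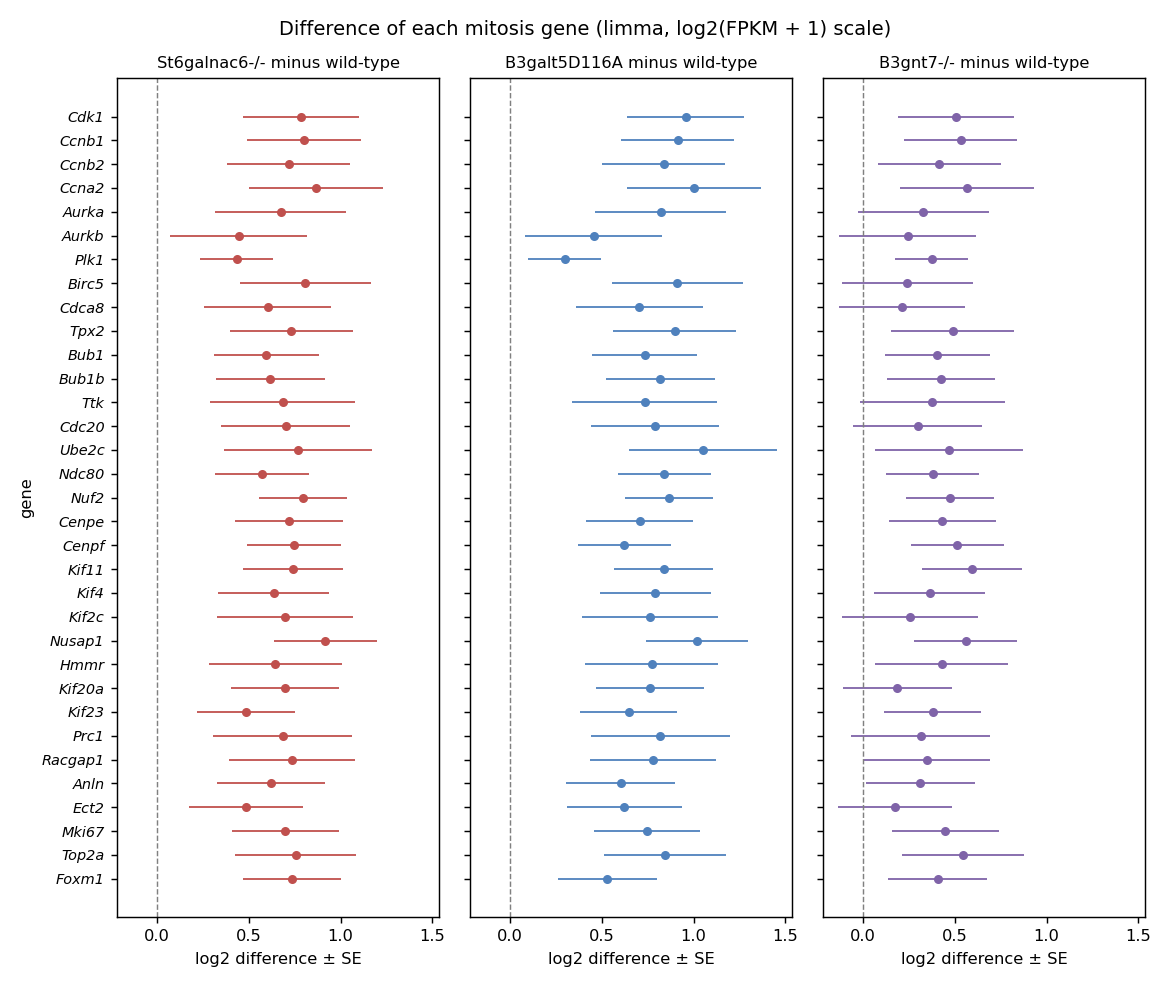
Fitted log2 differences of the 33 mitosis genes (down), with 1 SE on each side, in St6galnac6-/-, B3galt5D116A and B3gnt7-/-, each minus wild-type (x axis, log2(FPKM + 1) scale). All points lie right of 0, with medians of 0.70, 0.79 and 0.40 from left to right, and no gene passed an adjusted p of 0.05.

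Set against each other, the mutants were not separated by the test on any of these genes. Between St6galnac6-/- and B3galt5D116A the median difference was -0.10, with 5 of 33 positive (49.2% of tested genes), and between St6galnac6-/- and B3gnt7-/- it was 0.30, with 33 positive (55.6%). Between B3galt5D116A and B3gnt7-/- it was 0.41, with 32 positive (53.0%). Limma called 0 of the 33 in each of the 3 comparisons, against 0.0260%, 0.0433% and 0.00867% of tested genes in the same order. At an unadjusted p under 0.05 there were 0 of the 33 in each, against 3.51%, 3.81% and 4.2% of tested genes. The SEs were 0.20 to 0.40 in each comparison, so these values do not show that the mutants were alike.

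The sexes differed in opposite directions within St6galnac6-/- and within B3gnt7-/-. In St6galnac6-/- the male value was lower for 33 of the 33 genes, with male-to-female ratios of FPKM from 0.428 (Ube2c) to 0.742 (Nuf2) and a median of 0.554. It was at least 1.5-fold lower for 31, all but Ndc80 and Nuf2, against 3.85% of tested genes. In B3gnt7-/- the male value was higher for 33 of the 33, with ratios from 1.0 (Plk1) to 2.72 (Ttk) and a median of 1.78. It was at least 1.5-fold higher for 30, all but Plk1, Cenpf and Mki67, against 6.56% of tested genes. In B3galt5D116A the ratios ran from 0.811 (Birc5) to 1.12 (Cenpf) with a median of 0.964, and in wild-type from 0.747 (Kif2c) to 1.08 (Foxm1) with a median of 0.915, and none of the 33 reached 1.5-fold in either. Of all tested genes, 3.22% were that much higher and 3.46% lower in the male of B3galt5D116A, and 2.45% higher and 3.37% lower in the male of wild-type. With 1 library of each sex in a genotype, sex cannot be told apart from other differences between those libraries. Over the 4 genotypes the fitted male minus female difference had a median of -0.072, with 7 genes positive (53.8% of tested genes); limma called 0 of the 33, against 0.0520% of tested genes, and 0 reached an unadjusted p under 0.05, against 1.66%. Without either St6galnac6-/- library that median was 0.18, and without either B3gnt7-/- library it was -0.33.

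**Figure D4:**
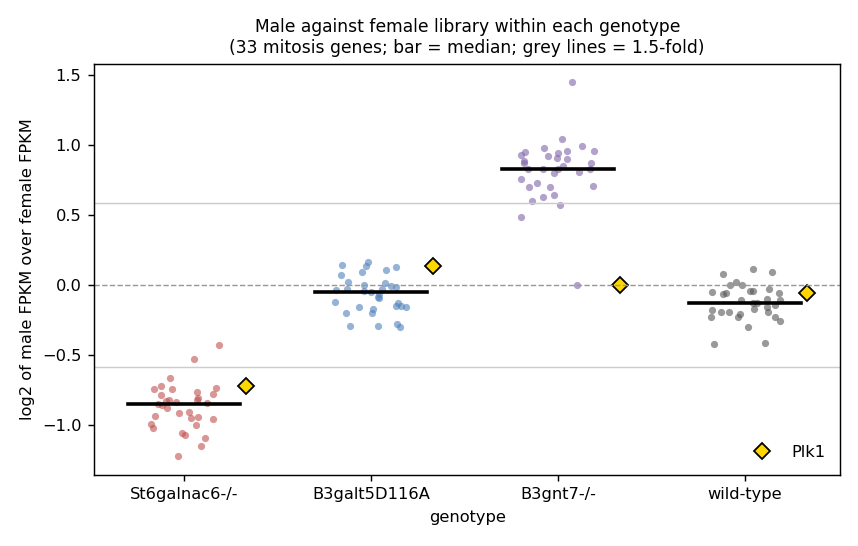
Ratio of male to female FPKM (y axis, on the log2 scale, where 0 is a ratio of 1) for each of the 33 mitosis genes within each genotype (x axis); bars are medians, grey lines mark 1.5-fold, and the diamond repeats the point of Plk1. All genes have ratios below 1 in St6galnac6-/- (median 0.554) and at or above 1 in B3gnt7-/- (median 1.78), while B3galt5D116A (0.964) and wild-type (0.915) lie around 1.

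How far single genes left the shared pattern was measured by taking each gene's mean and each library's mean off the 264 log2 values. The library means held 93.6% of the sum of squares about the gene means. Departures had an SD of 0.11, against 0.42 for the values before the library means were taken off. Departures over 0.25 occurred in 8 of the 264. Plk1 held the largest, 0.53 above the pattern in the female B3gnt7-/- library, and -0.39 in the female B3galt5D116A library. In that B3galt5D116A library Foxm1 (-0.29) and Cenpf (-0.26) also lay below the pattern and Ube2c (0.28) above it. The others were Cenpf in the female B3gnt7-/- library (0.28), Ndc80 in the female St6galnac6-/- library (-0.27) and Nuf2 in the male St6galnac6-/- library (0.26). Correlation of each gene with the mean of the other 32 over the 8 libraries was 0.753 for Plk1, the lowest, then 0.934 for Foxm1, and 0.996 for Ccna2, the highest; these points share the same libraries and depths.

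Genes outside the 33 with the most similar pattern were ranked by their correlation with the mean over the 33 across the 8 libraries, among the 8692 whose average was 5 FPKM or more. The closest were Spag5 (r = 0.995), Tmpo (0.991), C330027C09Rik (0.991), Cdca3 (0.989), Ckap2l (0.989), Mad2l1 (0.987), Ncaph (0.987), Zw10 (0.985), Smc4 (0.985) and Nek2 (0.985). Of these 10, 7 stand in the lists of mitotic genes below. Spag5, the spindle protein astrin, was at 7.58 (male) and 12.9 (female) FPKM in St6galnac6-/-, at 10.9 and 10.6 in B3galt5D116A, at 10.5 and 6.32 in B3gnt7-/-, and at 6.42 and 6.75 in wild-type, highest in the female St6galnac6-/- library and lowest in the female B3gnt7-/- library.

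Other genes of cell division were examined by list. Of 43 other spindle and cytokinesis genes, limma called 0 in any mutant; the median difference was 0.57 in St6galnac6-/-, 0.60 in B3galt5D116A and 0.30 in B3gnt7-/-, and 15, 18 and 1 were higher at an unadjusted p under 0.05 in that order, against 4.07%, 5.84% and 2.88% of tested genes. Arhgap11a and Knstrn, which binds the spindle and kinetochores, had the smallest p; Knstrn was at 10.3 (male) and 17.8 (female) FPKM in St6galnac6-/-, at 14.5 and 14.0 in B3galt5D116A, at 13.5 and 9.74 in B3gnt7-/-, and at 7.51 and 7.80 in wild-type. Of 34 other kinetochore and centromere genes, 0 were called, with medians of 0.40, 0.51 and 0.23 and 5, 12 and 1 higher at an unadjusted p under 0.05, beside the same 4.07%, 5.84% and 2.88% of tested genes. Ska2, of the microtubule-binding SKA complex, and Sgol1, the protector of centromeric cohesion, led by p. Of 19 condensin and cohesin genes 0 were called, with medians of 0.25, 0.30 and 0.18; Smc2 and Ncaph, both condensin subunits, led. Of 32 regulators of mitotic entry and exit 0 were called, and the medians were 0.16, 0.17 and -0.011; Fbxo5, the inhibitor EMI1, and Cks1b led. These medians, too, are in the order St6galnac6-/-, B3galt5D116A, B3gnt7-/-.

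The genes of DNA replication, 44 in number and with 0 called by limma, had another library at the top. Their mean log2 was 3.40 (male) and 3.78 (female) in St6galnac6-/-, 3.56 and 3.87 in B3galt5D116A, 3.74 and 3.30 in B3gnt7-/-, and 3.39 and 3.42 in wild-type. Highest here was the female B3galt5D116A library, and the male St6galnac6-/- library lay within the wild-type range. The median differences were 0.19, 0.31 and 0.11, in the order St6galnac6-/-, B3galt5D116A and B3gnt7-/-, and Orc1 and Prim1, which act in origin licensing and priming, led by p. Of 44, 10 had their highest value in the female St6galnac6-/- library, against 32 of the 33 mitosis genes and 12.3% of all tested genes.

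Genes of G1 and inhibitors of the cycle were taken next. Of 13 tested G1 cyclin and E2F genes 0 were called, with medians of 0.14, 0.16 and 0.093; Myc, the growth regulator, had log2 differences of 0.71, 0.55 and 0.32 (adjusted p = 0.342, 0.390 and 0.791 by limma), and Ccnd1, cyclin D1, of 0.14, 0.31 and 0.21, all in the order St6galnac6-/-, B3galt5D116A and B3gnt7-/-. Of 17 tested cell cycle inhibitors 0 were called, with medians of -0.12, -0.079 and -0.061. Cdkn2b, the CDK4 and CDK6 inhibitor p15, was at 34.2 (male) and 27.0 (female) FPKM in St6galnac6-/-, at 32.8 and 31.7 in B3galt5D116A, at 34.3 and 28.1 in B3gnt7-/-, and at 51.7 and 43.6 in wild-type. All 6 mutant libraries lay below both wild-type libraries, the female B3gnt7-/- library included. Its limma differences were -0.63 (SE 0.12, adjusted p = 0.174) in St6galnac6-/-, -0.54 (SE 0.12, adjusted p = 0.268) in B3galt5D116A and -0.59 (SE 0.12, adjusted p = 0.339) in B3gnt7-/-. Btg2, an antiproliferative factor, had log2 differences of -0.40, -0.38 and -0.21. Other inhibitors went the other way, with positive differences for 6, 8 and 4 of the 17, against 50.6%, 50.2% and 47.9% of tested genes. Among these, Cdkn2c had log2 differences of 0.60, 0.69 and 0.31, and Cdkn1b of 0.27, 0.23 and 0.21, all in the same order of mutants.

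**Figure D5:**
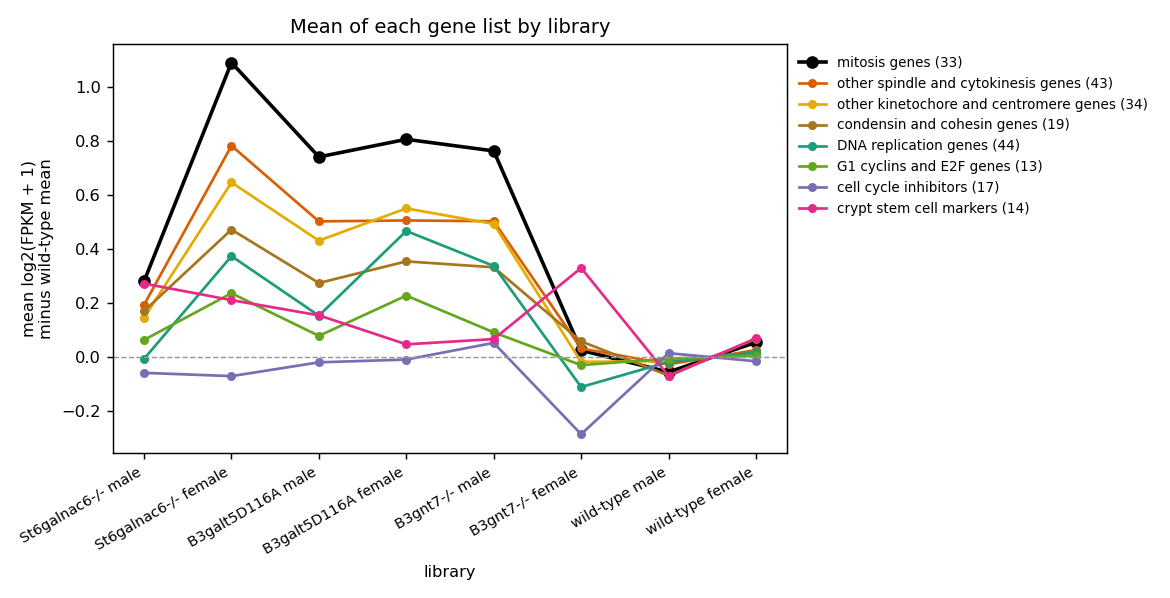
Mean log2(FPKM + 1) over each gene list, minus its mean over both wild-type libraries (y axis), in the 8 libraries (x axis); numbers in the legend are genes tested, and lines only join the points of a list. Of the 8 lists drawn the mitosis genes span the widest range; the other spindle and kinetochore genes are also highest in the female St6galnac6-/- library, and the crypt stem cell markers are highest in the female B3gnt7-/- library.

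Markers of the cell types in the crypt were set beside these values. Of 14 tested stem cell markers 0 were called, with median differences of 0.22, 0.023 and 0.12 in the order St6galnac6-/-, B3galt5D116A and B3gnt7-/-. Positive differences numbered 13, 8 and 10 of the 14 in that order, against 50.6%, 50.2% and 47.9% of tested genes. Their mean log2 was 3.87 (male) and 3.81 (female) in St6galnac6-/- and 3.75 and 3.65 in B3galt5D116A. It was 3.67 and 3.93 in B3gnt7-/-, and 3.53 and 3.67 in wild-type. By this mean the female B3gnt7-/- library, low in mitosis genes, was the highest, just above the male St6galnac6-/- library. It held the highest value of Lgr5, Rnf43, Lrig1, Slc12a2 and Myb. The other tested markers, Smoc2 and Ascl2 among them, were highest in other libraries. Smoc2, a stem cell marker, was at 16.1 (male) and 16.5 (female) FPKM in St6galnac6-/-, at 21.9 and 18.3 in B3galt5D116A, at 12.9 and 15.2 in B3gnt7-/-, and at 7.65 and 11.5 in wild-type, with all 6 mutant libraries above both wild-type libraries and limma differences of 0.73, 1.01 and 0.53 (adjusted p = 0.299, 0.233 and 0.632) in the order St6galnac6-/-, B3galt5D116A and B3gnt7-/-. The differences of Smoc2 were the largest of the 14 markers in St6galnac6-/- and in B3galt5D116A. Ascl2, the stem cell transcription factor, had log2 differences of 0.49, 0.05 and 0.56. Of 12 tested goblet cell markers, 1 rose in St6galnac6-/-, where limma called 0.0867% of tested genes in either direction. This was Ang4, an antimicrobial ribonuclease, with a log2 difference of 5.20 (SE 0.57, limma adjusted p = 0.0468). With no filter on low values, limma called 0 genes in St6galnac6-/-. Ang4 was at 361 (male) and 158 (female) FPKM in St6galnac6-/-, at 61.5 and 191 in B3galt5D116A, at 27.3 and 58.2 in B3gnt7-/-, and at 3.98 and 7.56 in wild-type. Summed over the markers, goblet cell genes were at 11484 (male) and 13432 (female) FPKM in St6galnac6-/-, at 11250.5 and 11845 in B3galt5D116A, at 10026 and 11802 in B3gnt7-/-, and at 7425 and 7162 in wild-type. That sum was higher in all 6 mutant libraries, the female B3gnt7-/- library included, and so was the mean log2 over the markers. Single markers differed. Positive log2 differences numbered 10, 12 and 12 of the 12 in St6galnac6-/-, B3galt5D116A and B3gnt7-/-, against 50.6%, 50.2% and 47.9% of tested genes. Muc2 in the male St6galnac6-/- library, at 1045 FPKM, lay below both wild-type libraries, at 1399 (male) and 1250 (female). Of 17 surface colonocyte markers 0 were called, with median differences of -0.34, 0.21 and -0.094. Their summed level was 12197.5 to 15756 FPKM over the mutant libraries, against 18281 (male) and 17275 (female) FPKM in wild-type. Lypd8 and Guca2a made up most of that sum, at 8637 and 5067 FPKM in the wild-type male library. The mean log2 over the markers was 7.47 (male) and 7.45 (female) in St6galnac6-/- and 7.78 and 8.11 in B3galt5D116A. It was 7.87 and 7.69 in B3gnt7-/- and 7.79 and 7.89 in wild-type. By that mean the female B3galt5D116A library lay above both wild-type libraries. The part of these shifts in the mitosis genes was not tested.

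Dividing cells of other types could also add mitotic RNA. B and plasma cell markers were near 0: 0 of 11 passed the filter, they summed to 0.212 to 0.922 FPKM per library, and Pax5, Fcrla and Tnfrsf17 were listed at 0 in all 8. T and intraepithelial lymphocyte markers, of which 8 of 14 passed the filter and 0 were called, summed to 26.3 (male) and 22.3 (female) FPKM in St6galnac6-/-, to 16.4 and 43.0 in B3galt5D116A, to 45.2 and 40.8 in B3gnt7-/-, and to 30.6 and 24.2 in wild-type. The female St6galnac6-/- library, highest in mitosis genes, had the second lowest sum of these. The male B3gnt7-/- and female B3galt5D116A libraries, also high in mitosis genes, had the highest sums. The part of lymphocytes in the mitosis values was not tested. Myeloid markers, 4 of 13 tested and 0 called, summed to 23.5 to 35.8 FPKM, most of it Cd14. Stromal and endothelial markers, 4 of 13 tested and 0 called, summed to 38.8 FPKM in the female B3gnt7-/- library and to 9.96 to 12.9 FPKM in the other 7. Dcn, decorin, a fibroblast matrix gene, was at 2.88 (male) and 3.03 (female) FPKM in St6galnac6-/-, at 2.59 and 2.73 in B3galt5D116A, at 2.45 and 18.9 in B3gnt7-/-, and at 3.35 and 2.101 in wild-type. Their part in the low mitosis values of the female B3gnt7-/- library was not tested.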

How the data were processed

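Per the labels' protocols, total RNA of colon epithelial cells was extracted with a miRNeasy Micro Kit and made into stranded mRNA libraries with a TruSeq kit. Per the submitters' processing notes, TopHat2 2.1.1, Bowtie2 2.2.8, SAMtools 0.1.18 and Cuffdiff 2.2.1 were used with mm10. The authors deposited FPKM for 24346 symbols per library; annotation, scaling between libraries and treatment of multiply matching reads are not given in the sources used here. Here, log2(FPKM + 1) was tested for the 11537 genes averaging 1 FPKM or more, with limma 3.58.1 (R 4.3.3; eBayes with trend) on all 8 libraries with genotype and sex as additive terms, which left 3 residual and 4.02 prior degrees of freedom. P-values are two-sided and adjusted by Benjamini-Hochberg over all tested genes in a comparison, at a threshold of 0.05. The fit was run on simulated data whose noise was independent between genes and libraries. The mitosis genes here shared a pattern, so that run does not show how the fit behaves on them. The mean over members has no test. The members and gene lists were chosen with earlier results of these data known. Values in all 8 libraries are given for the 2 members of highest mean FPKM in each role and for those with the smallest p, the largest or the smallest difference in a mutant. From the other lists the called genes are named, or else the 2 with the smallest p. Alternatives were another pseudocount, filter, normalization, prior, set of samples and model, and leaving out each library. Gene coordinates and promoters come from GENCODE M21 and RefSeq on GRCm38. Depth was read as a ratio to the wild-type male library from values under 0.15 FPKM, which 27.9% to 34.0% of 740 to 907 genes shared within 0.01 on the log2 scale.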

Additional observations from a re-analysis of the deposited data

Results flagged for a closer look

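The mean log2(FPKM + 1) over the 33 mitosis genes differed between the male and female library in opposite directions in different genotypes, with 1 library of each sex per genotype, and these differences between genotypes were not tested. In St6galnac6-/- the male was lower than the female by 0.81 and in B3gnt7-/- it was higher by 0.74, so that the male minus female value of St6galnac6-/- less that of B3gnt7-/- was -1.54. In B3galt5D116A the male minus female value was -0.065, and that value less the one of B3gnt7-/- was -0.80. In wild-type it was -0.11, and B3gnt7-/- less wild-type was 0.85. In B3gnt7-/- all 33 genes were higher in the male library, Plk1 by a ratio of only 1.0, and in St6galnac6-/- all 33 were lower in the male library. The male B3gnt7-/- and female St6galnac6-/- libraries had relative depths of 1.40 and 1.36, the female B3gnt7-/- and male St6galnac6-/- libraries 1.18 and 1.22, and the part of depth was not tested.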

How the results depend on the processing

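Of the 33 mitosis genes, 0 passed limma's adjusted p of 0.05 under any of the 17 alternatives in any mutant; the lowest adjusted p of a member ranged from 0.116 to 1.0 in St6galnac6-/-, 0.0734 to 0.840 in B3galt5D116A and 0.273 to 1.0 in B3gnt7-/-. The count over all tested genes moved more than that over the members. In St6galnac6-/- it was 10, and it became 0 with no filter on low values, 5 with quantile normalization, 23 without the sex term, 6 with no trend in the prior variance and 49 when only St6galnac6-/- and wild-type were fitted; leaving out each library in turn gave 2 to 31. In B3galt5D116A it was 9, and it became 1 with no filter and 16 without the sex term, with 3 to 13 when a library was left out. In B3gnt7-/- it was 6, and it became 2 with no filter, 3 with a filter at a mean of 5 FPKM and 3 with no trend, with 3 to 36 when a library was left out. For male minus female, 6 genes were called and 5 to 6 when a library was left out.

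The mean difference over the members in B3galt5D116A, 0.77, was 0.84 with a pseudocount of 0.1, 0.58 with a pseudocount of 5 and 0.68 as the difference between genotype means of each library's median level over the members. The mean difference over the members was taken from library means, without a sex term. Leaving out a library moved it between 0.72 and 0.83 in B3galt5D116A. It moved between 0.28 and 1.09 in St6galnac6-/- and between 0.026 and 0.76 in B3gnt7-/-. In limma's fit, which holds a sex term, 7 of all 33 members were positive in B3gnt7-/- without the B3gnt7-/- male. In St6galnac6-/- without the St6galnac6-/- female 32 were positive. Of the 15 members given with their values in every library, 10 changed direction in that fit, all in B3gnt7-/- without its male. Over the libraries left out, their log2 difference there ran from -0.085 to 1.21 for Ccna2, -0.16 to 0.99 for Ccnb2, -0.39 to 0.87 for Birc5, -0.23 to 1.17 for Ube2c, -0.36 to 0.95 for Cdc20, -0.034 to 0.90 for Cenpe, -0.25 to 0.95 for Racgap1, -0.34 to 0.97 for Prc1, -0.015 to 1.10 for Top2a and -0.40 to 0.75 for Ect2. These differences include the shift that the fit gives to sex, so a negative one need not mean a female library below wild-type. For Ccna2, Cenpe and Top2a the female B3gnt7-/- FPKM lay above both wild-type values, and for Ube2c between them. Where 1 library of a genotype was left, it was assumed to vary like the others. No paired analysis was possible because the labels give no replicate numbers; sex was a term of the fit instead.

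With 2 libraries per genotype and FPKM without counts, counting error is unknown, and a difference of the size seen here did not pass the adjusted threshold. On the log2(FPKM + 1) scale the fold of low genes is understated.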
